A study of Mus musculus with 48 samples.

Results

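*Cux2*, *Golph3l*, *Hormad1*, *Hjurp*, and *Mfap1a* are 5 genes whose RNA-seq counts differed between WT mice and mice labelled *Il1rl1-/-* in 2 or 3 cell types of the spleen. *Cux1*, *Golph3*, and *Mfap1b* are the paralogues of 3 of them, which makes 8 of the 54735 genes in the count files. The 5 genes were chosen on the adjusted p of the genotype comparison itself, so their differences between genotypes are a description without a test. The 3 paralogues were chosen by relation and were tested, the question being whether the RNA of a paralogue differs between genotypes when that of its partner does.

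IL1RL1, also called ST2, is the receptor of the cytokine IL-33, and the study asked what this pathway does as monocytes become red pulp macrophages (RPMs), the cells that clear old erythrocytes and recycle their iron. Male Balb/c mice aged 10 weeks, WT or *Il1rl1-/-* on that background and with no treatment named, gave 3 sorted splenic populations, all Ly6Glo: monocytes (CD11bhi and F4/80-), pre-RPMs (CD11bhi and F4/80lo), and RPMs (CD11blo/- and F4/80hi). Each of the 6 groups held 4 libraries from 4 mice, 24 libraries in all, with 3562367 to 6559454 counts on genes (median 4728764). The mutant line came from another laboratory, and whether the WT mice were littermates is not given in the sources used here, so the targeted allele and any other difference between the lines cannot be told apart.

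The counts of *Il1rl1* itself come first. Monocytes of mice 1, 2, 3, and 4 held 51, 73, 71, and 64 counts in the libraries with the *Il1rl1-/-* label and 28, 19, 12, and 13 in the WT ones. Pre-RPMs held 50, 76, 42, and 65 counts in the former and 18, 15, 13, and 24 in the latter. RPMs held 1, 7, 3, and 6 counts in the former and 5, 9, 7, and 13 in the latter, so that the groups overlapped in RPMs alone. *Il1rl1* was thus higher where the label says that it is deleted, in monocytes and in pre-RPMs, which is no check of the deletion, since counts per gene do not show which exons the reads come from and a targeted allele can still give reads. Every direction below is one between libraries labelled *Il1rl1-/-* and libraries labelled WT.

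The sorted populations were checked against markers listed for each. The summed level of 8 RPM markers was 7170 CPM (counts scaled to a common library total by TMM) in WT RPMs and 8390 in RPMs labelled *Il1rl1-/-*, against 85.9 to 219 in the 4 other groups. The 6 monocyte markers summed to 886 CPM in WT monocytes and 999 in monocytes labelled *Il1rl1-/-*, led by *Ccr2*. That list did not set monocytes apart, with 1320 and 1460 CPM in pre-RPMs, again led by *Ccr2*, and 1490 and 1630 in RPMs, where *Csf1r* made up 1460 and 1610. The same monocyte libraries held 1260 and 997 CPM of 6 NK cell markers, led by *Gzma*, and 1330 and 1360 CPM of 6 neutrophil markers, led by *S100a9*, with none of the 12 genes at 0 in a whole group. The RPM libraries also held 6 erythroid markers, led by *Hbb-bs*. These summed to a mean of 9000 CPM in WT (1300 to 23100 over libraries) and 7340 in RPMs labelled *Il1rl1-/-* (862 to 14900). In the 4 other groups that mean was 8.71 to 182 CPM. In bulk libraries, fewer cells of a type and less RNA per cell cannot be told apart.

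CUX1 and CUX2 are homeobox transcription factors of the CUT class, which bind DNA through CUT repeats and a homeodomain, and CUX2 is best known from upper-layer neurons of the cortex. GOLPH3 and GOLPH3L bind phosphatidylinositol 4-phosphate on the Golgi, where GOLPH3 links the membrane to the motor MYO18A and GOLPH3L has been described as opposing it. HORMAD1 is a protein of the meiotic chromosome axis that is normally made in germ cells. HJURP is the chaperone that loads the histone variant CENP-A at centromeres, and MFAP1 is a component of the spliceosomal B complex.

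In GRCm38, *Cux2* (ENSMUSG00000042589) lies at chr5:121856366-122050102 and *Cux1* (ENSMUSG00000029705) at chr5:136248135-136567490, both on the minus strand and 14.2 Mb apart. *Hormad1* (ENSMUSG00000028109, chr3:95559677-95587671) and *Golph3l* (ENSMUSG00000046519, chr3:95588934-95619247) are neighbours on the plus strand, and 1262 bases separate the end of the first from the start of the second. *Golph3* (ENSMUSG00000022200) lies at chr15:12321450-12351591 on the plus strand, and *Hjurp* (ENSMUSG00000044783) at chr1:88262471-88277633 on the minus strand, 47.8 Mb from *Il1rl1* on the same chromosome. *Mfap1a* (ENSMUSG00000068479, chr2:121491911-121506665) and *Mfap1b* (ENSMUSG00000048222, chr2:121460235-121474067) lie 17843 bases apart on the minus strand.

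How far a paralogue can be read separately depends on its sequence. All sequences, windows, and motifs given are those of the reference genome GRCm38, and the sequence of the Balb/c mice used was not examined. Over 1317 coding bases in 7 exons, *Mfap1a* and *Mfap1b* had 0 differing bases. The first coding exon of each is shown because it makes the identity plain, the strand being minus for both, and the other 6 coding exons were identical as well. No base is in capitals, since none differed.

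Mfap1a, chr2:121506463-121506541: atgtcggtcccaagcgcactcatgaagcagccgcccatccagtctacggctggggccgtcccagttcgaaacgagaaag

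Mfap1b, chr2:121473834-121473912: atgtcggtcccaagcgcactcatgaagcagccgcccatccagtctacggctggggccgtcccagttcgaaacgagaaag

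In contrast, the coding sequences of *Cux2* and *Cux1* (4278 and 4551 bases) were 56.0% identical, and those of *Golph3l* and *Golph3* (1029 and 894 bases) 59.0%. Of all 50-base windows along the exons, 57.9% of those of *Mfap1a* and 59.2% of those of *Mfap1b* also occurred elsewhere in the genome, and 46.1% and 58.8% of all windows occurred within the other gene. The share found elsewhere was 32.8% for *Hormad1*, 1.61% for *Hjurp*, 0.58% for *Cux2*, 0.545% for *Cux1*, and 0% for *Golph3l* and *Golph3*. With the counting options given, read pairs that fit several sites are not counted, so the values of *Mfap1a* and *Mfap1b* rest on the parts in which they differ. Their separate levels are therefore less certain than those of the other 6 genes, and levels per length are too low for both.

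*Hormad1* and *Golph3l* lie next to each other and differed in opposite directions between genotypes, so the 250 bases before each start are shown, from the RefSeq promoter table of GRCm38 and on the plus strand. Motifs were searched on both strands. Capitals mark, for *Hormad1*, GGCGGGAA (an E2F-type site) and CACGTG (an E-box) and, for *Golph3l*, CCAAT or its reverse complement ATTGG.

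Hormad1, chr3:95559427-95559676: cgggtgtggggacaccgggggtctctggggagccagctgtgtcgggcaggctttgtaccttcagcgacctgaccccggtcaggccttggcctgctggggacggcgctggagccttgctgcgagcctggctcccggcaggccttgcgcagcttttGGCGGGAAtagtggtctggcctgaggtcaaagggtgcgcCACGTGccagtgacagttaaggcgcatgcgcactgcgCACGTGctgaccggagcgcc

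Golph3l, chr3:95588684-95588933: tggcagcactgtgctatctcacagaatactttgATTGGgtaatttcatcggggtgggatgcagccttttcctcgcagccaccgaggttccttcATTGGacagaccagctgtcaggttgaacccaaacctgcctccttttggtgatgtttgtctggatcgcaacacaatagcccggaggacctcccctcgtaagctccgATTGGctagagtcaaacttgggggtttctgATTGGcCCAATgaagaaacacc

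The window of *Hormad1* held 1 GGCGGGAA and 2 CACGTG, found in 1.85% and 6.02% of 32817 RefSeq promoter windows. These windows hold the 250 bases before a start, the span searched for every gene. The window of *Golph3l* held 5 CCAAT or ATTGG, a motif present at least once in 33.8% of windows, and that of its paralogue *Golph3* held 1. The 250 bases before the starts of *Mfap1a* and *Mfap1b* were 84.8% identical (217 identical bases, 27 mismatches, and 12 gap bases), and both genes were higher in the libraries with the *Il1rl1-/-* label. ATCGAT, a sequence that CUX proteins can bind, occurred in 0.728% of all windows and in 1 of the windows of the 8 genes, at the other annotated start of *Cux2*. GGCGGGAA was also found for *Mfap1a*, though not for *Mfap1b*, and CCAAT or ATTGG for *Hjurp* and *Mfap1b*. AGATAA and TGATAA, which hold the sequence GATA, were searched as well. They occurred in 9.99% and 7.95% of all windows and in none of the 8 genes.

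Between genotypes, monocytes had 7 calls among 11405 genes tested (0.0614%), pre-RPMs 59 among 10698 (0.552%), and RPMs 26 among 11150 (0.233%), by edgeR's quasi-likelihood test at a Benjamini-Hochberg adjusted p under 0.05. With the mouse number as a block, these counts were 27 in monocytes and 81 in RPMs, and the count in pre-RPMs rose as well, as given below. In all, 6 genes were called in 3 cell types, 4 in 2, and 66 in 1. *Cux2*, *Golph3l*, *Hormad1*, and *Hjurp* were called in 3 and *Mfap1a* in pre-RPMs and RPMs, as the choice required. Most of the monocyte calls of these members were lost without 1 of the monocyte libraries, as given below. Ranked by the second smallest of the 3 adjusted p values, *Mfap1a* was the member nearest to the threshold, at 0.0028. Of the genes not chosen, *Il1rl1* (0.00882) and *Abca9* (0.0462) were the last inside it, and *Dst* (0.0677), *Slc9a9* (0.0714), *Abcd2* (0.0714), and *Mfap1b* (0.108) the first outside. *Abca9*, *Dst*, *Slc9a9*, and *Abcd2* are named for this rank alone.

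**Figure D1:**
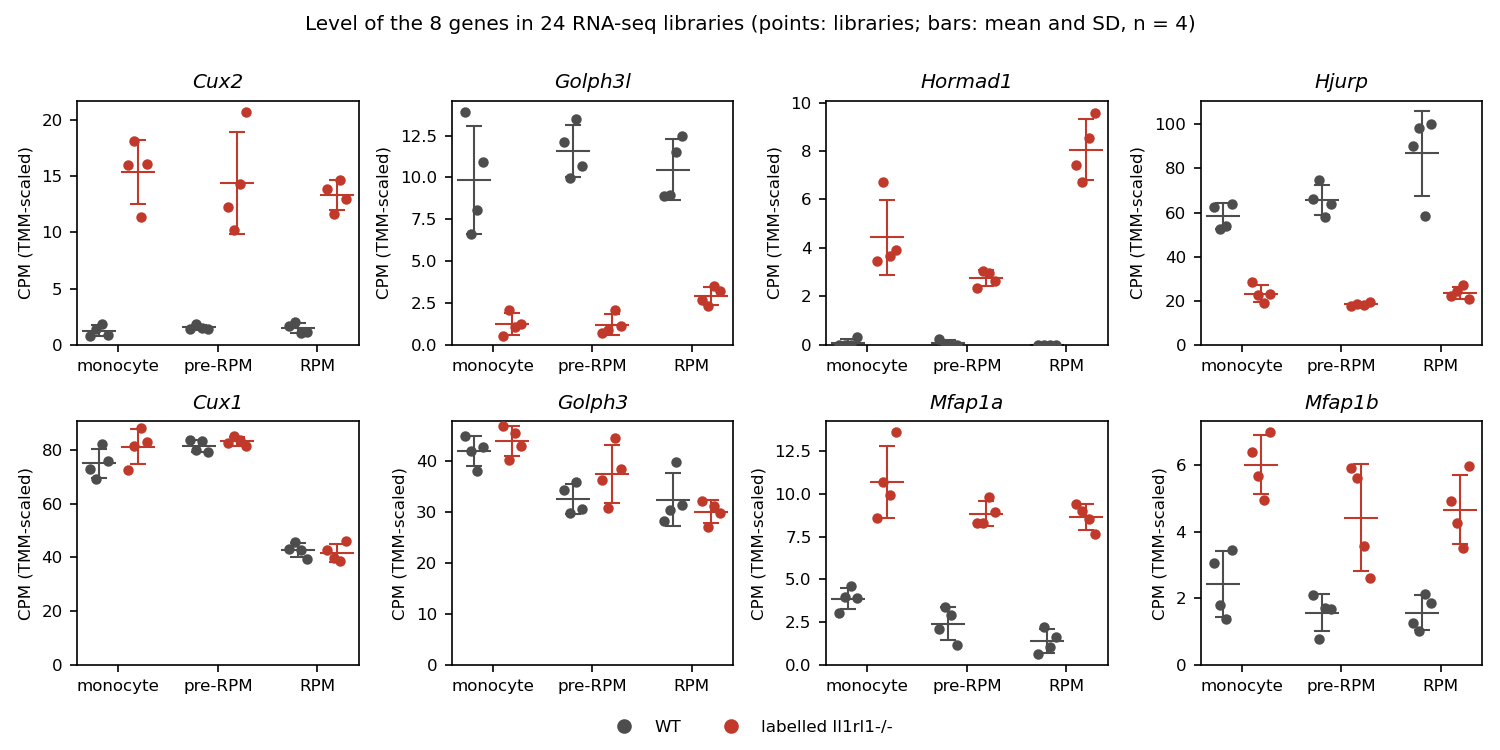
Level of each of the 8 genes in CPM scaled by TMM factors (vertical axis, linear and from 0) in the 24 libraries, by cell type and genotype label, with points for libraries and bars for the mean and SD of 4. *Cux2*, *Hormad1*, *Mfap1a*, and *Mfap1b* sit higher and *Golph3l* and *Hjurp* lower in libraries labelled *Il1rl1-/-* in each cell type, whereas the points of *Cux1* and *Golph3* overlap.

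*Cux2* was scarcely counted in WT cells. WT monocytes of mice 1 to 4 held 5, 7, 8, and 6 counts and those labelled *Il1rl1-/-* 65, 86, 53, and 78, which is 1.22 ± 0.49 and 15.4 ± 2.82 CPM (mean ± SD, n = 4). Pre-RPMs held 6, 7, 6, and 6 counts in WT and 52, 60, 48, and 111 in the libraries with the *Il1rl1-/-* label. RPMs held 8, 10, 4, and 5 counts in WT and 62, 71, 67, and 61 in the libraries with the *Il1rl1-/-* label, which is 1.49 ± 0.458 and 13.3 ± 1.33 CPM (mean ± SD, n = 4). No WT library reached the lowest library labelled *Il1rl1-/-* in any cell type, and the high counts were of like size in all 3. The difference in log2 level was 3.68, 3.21, and 3.10 for monocytes, pre-RPMs, and RPMs.

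*Cux1*, its paralogue, was counted in every library and did not follow it. In monocytes of mice 1 to 4 its level was 72.7, 69.3, 82.1, and 75.7 CPM in WT and 72.3, 81.3, 88.1, and 82.9 in the libraries with the *Il1rl1-/-* label. Pre-RPMs held 359, 304, 339, and 333 counts (WT) against 349, 502, 281, and 436 in the libraries with the *Il1rl1-/-* label, and in RPMs 204, 224, 160, and 170 and 191, 243, 176, and 216. Scaled to depth, the genotypes overlapped in each cell type, at 74.9 ± 5.45 and 81.2 ± 6.56 CPM in monocytes, 81.4 ± 2.18 and 83.1 ± 1.64 CPM in pre-RPMs, and 42.7 ± 2.61 and 41.8 ± 3.33 CPM in RPMs (WT and labelled *Il1rl1-/-*, mean ± SD, n = 4). On the log2 scale, *Cux1* differed by 0.11 in monocytes (95% interval −0.13 to 0.35, edgeR's adjusted p = 0.997), 0.03 in pre-RPMs (−0.14 to 0.20, adjusted p = 0.96), and −0.04 in RPMs (−0.25 to 0.17, adjusted p = 0.968). The largest fall that these intervals leave is 0.25 on the log2 scale, in RPMs.

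Per kilobase of gene model, *Cux1* was the higher of the pair in both genotypes. The summed level of *Cux2* and *Cux1* was 3.86, 4.22, and 2.28 CPM per kb in WT monocytes, pre-RPMs, and RPMs, and 5.58, 5.58, and 3.41 in the libraries with the *Il1rl1-/-* label, a ratio of 1.45, 1.32, and 1.50. *Cux2* made up 3.11%, 3.61%, and 6.40% of that sum in WT and 27.3%, 25.2%, and 38.7% in the libraries with the *Il1rl1-/-* label. The difference in level was 1.41, 1.27, and 1.17 CPM per kb for *Cux2* and 0.31, 0.08, and −0.04 for *Cux1*. Without division by length, the ratio of the sums was 1.27, 1.17, and 1.25.

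*Golph3l* was counted at a moderate level in WT cells and at a low one in the libraries with the *Il1rl1-/-* label. Monocytes of mice 1 to 4 held 91, 33, 35, and 73 counts in WT and 2, 10, 5, and 6 in the libraries with the *Il1rl1-/-* label, which is 9.86 ± 3.24 and 1.23 ± 0.665 CPM (mean ± SD, n = 4). Pre-RPMs held 52, 38, 55, and 45 counts in WT and 3, 5, 7, and 6 in the libraries with the *Il1rl1-/-* label. RPMs held 42, 44, 43, and 54 counts in WT and 12, 14, 16, and 15 in the libraries with the *Il1rl1-/-* label, which is 10.4 ± 1.81 and 2.92 ± 0.54 CPM (mean ± SD, n = 4). The genotypes did not overlap in any cell type, and among the libraries with the *Il1rl1-/-* label all RPM libraries were above all others in counts. The difference in log2 level was −2.98, −3.33, and −1.85 for monocytes, pre-RPMs, and RPMs.

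*Golph3* was not called between genotypes in any cell type. Its monocyte counts were 293, 210, 165, and 285 (WT) against 190, 191, 211, and 208 in the libraries with the *Il1rl1-/-* label. They were 147, 113, 146, and 128 against 153, 181, 149, and 206 in pre-RPMs, and 133, 149, 149, and 135 against 143, 165, 142, and 140 in RPMs. Scaled to depth, these were 41.8 ± 2.89 and 43.8 ± 2.93 CPM in monocytes, 32.5 ± 2.93 and 37.4 ± 5.65 CPM in pre-RPMs, and 32.4 ± 5.13 and 30.0 ± 2.22 CPM in RPMs (WT and labelled *Il1rl1-/-*, mean ± SD, n = 4), and the genotypes overlapped in all 3. On the log2 scale, *Golph3* differed by 0.06 in monocytes (95% interval −0.17 to 0.29, edgeR's adjusted p = 0.997), 0.19 in pre-RPMs (−0.07 to 0.45, adjusted p = 0.716), and −0.11 in RPMs (−0.38 to 0.15, adjusted p = 0.909).

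*Golph3* was also the more abundant of its pair per length. The sum of both was 16.3, 14.1, and 13.6 CPM per kb in WT monocytes, pre-RPMs, and RPMs and 13.9, 11.9, and 10.2 in the libraries with the *Il1rl1-/-* label, a ratio of 0.853, 0.844, and 0.75. *Golph3l* made up 20.9%, 28.9%, and 27.0% of it in WT and 3.18%, 3.40%, and 10.0% in the libraries with the *Il1rl1-/-* label. The difference in level was −3.04, −3.65, and −2.65 CPM per kb for *Golph3l* and 0.6, 1.51, and −0.73 for *Golph3*. In pre-RPMs, where the difference of *Golph3* was the largest of the 3, its groups overlapped and its interval included no change.

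*Mfap1a* was among the lower genes of the 8 in WT. Monocytes of mice 1 to 4 held 20, 20, 20, and 26 counts in WT and 35, 51, 46, and 66 in the libraries with the *Il1rl1-/-* label. Pre-RPMs held 9, 13, 12, and 5 counts in WT and 35, 49, 33, and 48 in the libraries with the *Il1rl1-/-* label. RPMs held 3, 11, 4, and 7 counts in WT and 42, 55, 39, and 36 in the libraries with the *Il1rl1-/-* label, which is 1.39 ± 0.694 and 8.66 ± 0.748 CPM (mean ± SD, n = 4). The genotypes did not overlap in any cell type. On the log2 scale, the difference between them was smallest in monocytes, where WT was highest. The difference in log2 level was 1.47, 1.87, and 2.59 for monocytes, pre-RPMs, and RPMs.

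*Mfap1b* differed in the same direction as *Mfap1a*, without being called. Monocytes held 20, 9, 6, and 23 counts in WT and 26, 27, 23, and 34 in the libraries with the *Il1rl1-/-* label, which is 2.42 ± 0.989 and 6.0 ± 0.885 CPM (mean ± SD, n = 4). Pre-RPMs held 9, 3, 7, and 7 counts in WT and 25, 33, 12, and 14 in the libraries with the *Il1rl1-/-* label, which is 1.57 ± 0.553 and 4.42 ± 1.59 CPM (mean ± SD, n = 4). RPMs held 6, 5, 8, and 8 counts in WT and 22, 26, 16, and 28 in the libraries with the *Il1rl1-/-* label, which is 1.57 ± 0.514 and 4.66 ± 1.04 CPM (mean ± SD, n = 4). In CPM the genotypes did not overlap in any cell type, which held for 2.34%, 4.97%, and 4.33% of all genes tested in monocytes, pre-RPMs, and RPMs, and for neither of the other paralogues.

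On the log2 scale, the difference of *Mfap1b* was 1.25 in monocytes (SE 0.29, 95% interval 0.60 to 1.90, edgeR's adjusted p = 0.746). It was 1.47 in pre-RPMs (SE 0.37, 0.70 to 2.25, edgeR's adjusted p = 0.108) and 1.58 in RPMs (SE 0.31, 0.90 to 2.25, edgeR's adjusted p = 0.0774). With mouse number added as a block, its RPM value was 1.58 with edgeR's adjusted p = 0.0415, which passes the threshold. All 3 intervals lay above 0, and the unadjusted p of *Mfap1b* was 0.00164, 0.000958, and 0.000243, the only ones under 0.05 among the 9 tests of paralogues, where 3.59%, 8.8%, and 7.27% of all genes tested had one. In each cell type *Mfap1b* passed the filter on low counts only through the libraries with the *Il1rl1-/-* label, where it is high, so that its entry into the test favoured this direction and the values are no support for it.

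The summed level of *Mfap1a* and *Mfap1b* was 1.64, 1.04, and 0.797 CPM per kb in WT monocytes, pre-RPMs, and RPMs and 4.34, 3.42, and 3.45 in the libraries with the *Il1rl1-/-* label, a ratio of 2.65, 3.29, and 4.33. *Mfap1a* made up 57.2%, 54.1%, and 40.5% of the sum in WT and 58.6%, 62.3%, and 60.0% in the libraries with the *Il1rl1-/-* label. The SD of that share in WT reached 18.0 percentage points, and the share rests on few counts. The difference in level was 1.62, 1.54, and 1.73 CPM per kb for *Mfap1a* and 1.07, 0.854, and 0.924 for *Mfap1b*.

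**Figure D2:**
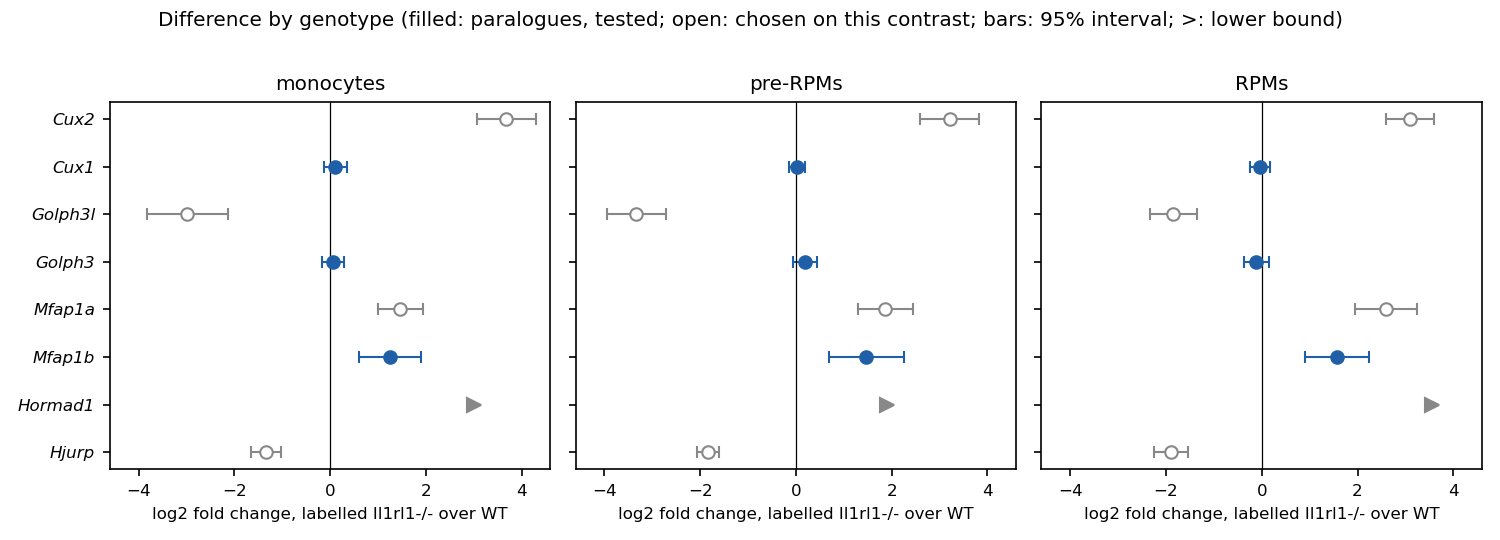
Difference in log2 level between libraries labelled *Il1rl1-/-* and WT (horizontal axis) for the 8 genes in each cell type, with 95% intervals; filled points are the tested paralogues, open points the genes chosen on this contrast, and the arrowhead the lower bound of *Hormad1*. *Cux1* and *Golph3* lie at 0.19 or less on either side of 0, whereas *Mfap1b* lies between 1.25 and 1.58, on the side of *Mfap1a*. The distance of the open points and their intervals from 0 follows from the choice on this contrast and tests nothing.

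**Figure D3:**
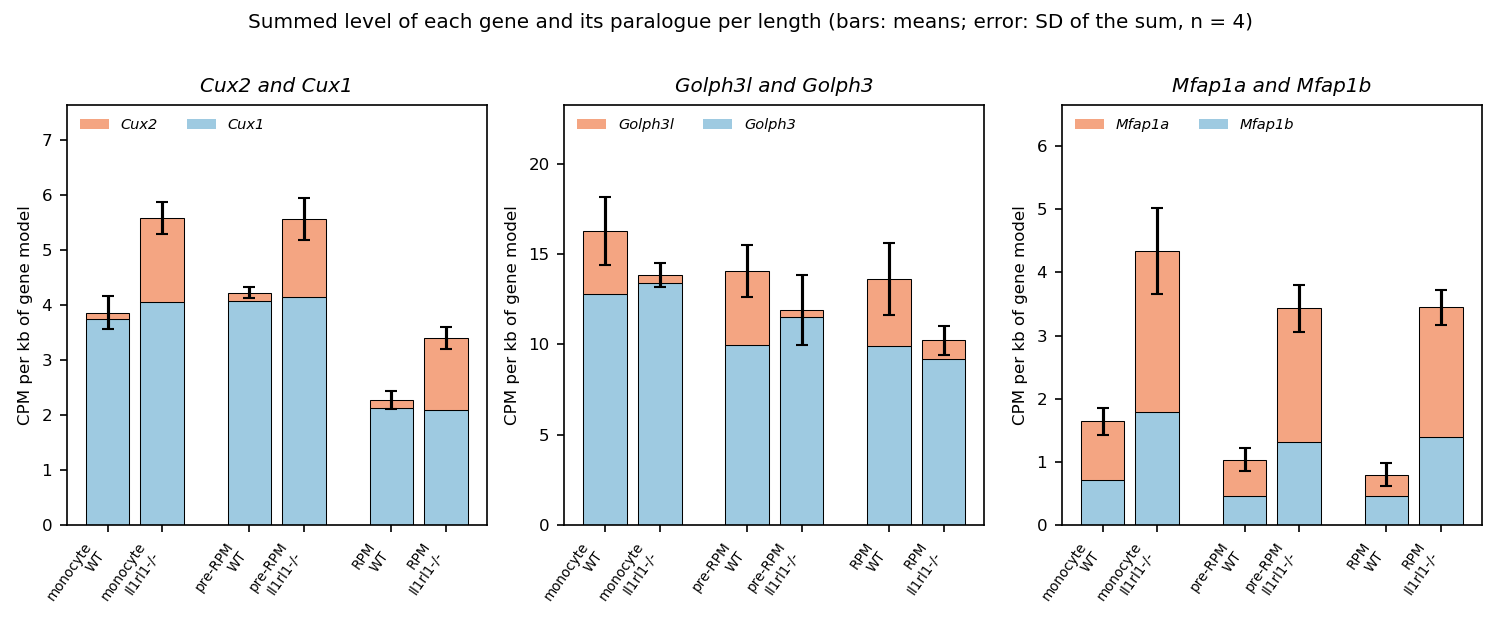
Summed level of each gene and its paralogue in CPM per kb of gene model (vertical axis, from 0) in the 6 groups, with stacked bars for the means of both genes and error bars for the SD of the sum (n = 4). The sum is 1.32 to 1.50 times as high in libraries labelled *Il1rl1-/-* for *Cux2* and *Cux1*, 0.75 to 0.853 times for *Golph3l* and *Golph3*, and 2.65 to 4.33 times for *Mfap1a* and *Mfap1b*.

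No paralogue was called between genotypes in any cell type by edgeR in the fit of that cell type without the block, or by DESeq2, at the filter on low counts used here, and *Mfap1b* alone was called under other settings. Whether the genotype difference of a paralogue itself varied between cell types was tested as an interaction over all 24 libraries, with no term for the mouse, although the labels give the cell types of a genotype the same mouse numbers. For *Cux1* the differences of log2 fold changes were −0.09 (pre-RPMs less monocytes), −0.06 (RPMs less pre-RPMs), and −0.15 (RPMs less monocytes). For *Golph3* they were 0.13, −0.30, and −0.17, and for *Mfap1b* 0.22, 0.11, and 0.33. None of these 9 was called, with edgeR's adjusted p from 0.879 to 1.0, and of all 12842 genes tested 0%, 0.0234%, and 0.0311% were. None had an unadjusted p under 0.05 either, against 4.18%, 5.9%, and 5.24% of all genes.

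*Hormad1*, a germ cell gene, was at or under the detection floor of 3 counts in every WT library. WT libraries of mice 1 to 4 held 0, 0, 0, and 2 counts in monocytes, 1, 0, 0, and 0 in pre-RPMs, and 0 in all 4 of RPMs. In the libraries with the *Il1rl1-/-* label, monocytes held 14, 32, 17, and 19 counts, pre-RPMs 10, 18, 10, and 14, and RPMs 33, 41, 39, and 45. These were 4.43 ± 1.54, 2.75 ± 0.322, and 8.06 ± 1.27 CPM (mean ± SD, n = 4). Against the mean CPM of 3 counts in the WT libraries (0.549, 0.734, and 0.685), *Hormad1* was at least 8.08-fold higher in monocytes, at least 3.75-fold in pre-RPMs, and at least 11.8-fold in RPMs. The floor covers counting error only.

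*Hjurp*, the CENP-A chaperone, remained well counted in both genotypes. Monocytes of mice 1 to 4 held 409, 262, 236, and 427 counts in WT and 115, 108, 87, and 112 in the libraries with the *Il1rl1-/-* label, which is 58.2 ± 5.85 and 23.2 ± 3.92 CPM (mean ± SD, n = 4). Pre-RPMs held 285, 284, 236, and 269 counts in WT and 75, 108, 60, and 103 in the libraries with the *Il1rl1-/-* label. RPMs held 427, 484, 219, and 434 counts in WT and 98, 150, 123, and 98 in the libraries with the *Il1rl1-/-* label, which is 86.9 ± 19.4 and 23.6 ± 2.73 CPM (mean ± SD, n = 4). The genotypes did not overlap in any cell type, and the WT RPM library of mouse 3 was the lowest of its group. That library held 23100 CPM of erythroid markers, against 1960, 1300, and 9650 in mice 1, 2, and 4. Its sums of NK, T, and B cell markers were the lowest of the group. Their part in its *Hjurp* value was not tested. The difference in log2 level was −1.34, −1.84, and −1.89 for monocytes, pre-RPMs, and RPMs.

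Per kilobase of gene model, the order of the 8 genes in WT pre-RPMs was *Golph3* (9.99 CPM per kb), *Hjurp* (7.89), *Cux1* and *Golph3l* (4.07 each), *Mfap1a* (0.574), *Mfap1b* (0.466), *Cux2* (0.152), and *Hormad1* (0.0336). *Cux1* and *Golph3l* did not differ beyond their SD (0.109 and 0.545 CPM per kb). In pre-RPMs labelled *Il1rl1-/-* the order was *Golph3* (11.5), *Cux1* (4.15), *Hjurp* (2.19), *Mfap1a* (2.11), *Hormad1* (1.59), *Cux2* (1.42), *Mfap1b* (1.32), and *Golph3l* (0.419 CPM per kb). There, *Golph3l* was the lowest of the 8. The levels of *Mfap1a*, *Mfap1b*, and *Hormad1* are too low by an unknown amount where windows occur elsewhere (57.9%, 59.2%, and 32.8%), so that their places in both orders, and whether neighbours differ, are uncertain.

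The steps between cell types within a genotype were not used in choosing the genes and were tested for those kept by the filter on low counts, with a call requiring an adjusted p below 0.01 from edgeR together with a log2 fold change past 1 in size. From monocytes to pre-RPMs, 0 of the 5 members tested in WT and 0 of the 7 tested in the libraries with the *Il1rl1-/-* label were called, where 3.57% of 11091 and 4.85% of 11196 genes were. The nearest to 0.05 was *Golph3* in WT, at −0.37 (edgeR's adjusted p = 0.0535). At an unadjusted p under 0.05, *Golph3* passed in WT and *Hormad1* and *Hjurp* in the libraries with the *Il1rl1-/-* label, beside 31.9% and 30.6% of all genes. By DESeq2, no member was called at this step either.

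From pre-RPMs to RPMs, 0 of 4 members tested in WT and 3 of 8 in the libraries with the *Il1rl1-/-* label were called, beside 24.7% of 11239 and 26.0% of 11437 genes. *Cux1*, which was lower in RPMs in both genotypes, was at −0.98 on the log2 scale in WT (SE 0.10, edgeR's adjusted p = 1.14e-06), just short of the fold threshold, and at −1.05 in the libraries with the *Il1rl1-/-* label (SE 0.09, edgeR's adjusted p = 8.99e-08). Without the WT RPM library of mouse 2, the value in WT was −1.01 and was called, and in a fit of all 24 libraries that in the libraries with the *Il1rl1-/-* label was −0.99 and was not. At an unadjusted p under 0.05, *Cux1* and *Hjurp* passed in WT and 5 of 8 members in the libraries with the *Il1rl1-/-* label, beside 56.1% and 58.8% of all genes, and DESeq2 called no member in WT.

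*Hormad1* was higher in RPMs than in pre-RPMs labelled *Il1rl1-/-*, by 1.48 on the log2 scale (SE 0.23, edgeR's adjusted p = 6.46e-05), from 2.75 to 8.06 CPM, and the libraries of the cell types did not overlap. *Golph3l* was also higher there, by 1.29 (SE 0.36, edgeR's adjusted p = 0.00668), from 1.19 ± 0.62 to 2.92 ± 0.54 CPM (mean ± SD, n = 4). This call rests on 3 to 7 counts in pre-RPMs, the gene passed the filter on low counts only through the RPMs, where it is high, and the call was lost with DESeq2 (adjusted p = 0.0395) and with every gene of at least 1 count (edgeR's adjusted p = 0.0175). It was lost as well without any single one of the RPM libraries of mice 1, 3, and 4 or the pre-RPM libraries of mice 1, 2, and 4 (1.13 to 1.32, edgeR's adjusted p from 0.0115 to 0.0326). *Cux2*, *Mfap1a*, and *Mfap1b* had log2 fold changes of −0.17, −0.08, and 0.01 at this step (edgeR's adjusted p = 0.479, 0.728, and 0.981), those of *Golph3* and *Hjurp* were −0.37 and 0.31 (edgeR's adjusted p = 0.0146 and 0.0373), and none of the 5 was called. In the same pre-RPMs and RPMs, erythroid markers summed to 20.5 and 7340 CPM, and markers of cycling cells to 33.7 and 159 CPM. The part of these cells in the steps of *Hormad1* and *Golph3l* was not tested.

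The partners of each gene were followed through 5 lists that leave out the 8 members. Of the CUT-class homeobox genes, 3 of 5 were tested in monocytes, pre-RPMs, and RPMs, and 0 were called between genotypes. *Satb1*, which organizes chromatin, had a level over the groups of 0.98 to 6.25 CPM per kb. *Satb1* was lower in pre-RPMs than in monocytes in both genotypes, by a log2 fold change of −1.83 in WT (SE 0.29, edgeR's adjusted p = 0.00254) and −1.79 in the libraries with the *Il1rl1-/-* label (SE 0.25, edgeR's adjusted p = 0.000704). The NK cell markers were lower at the same step, with sums of 1260 and 102 CPM in WT and 997 and 28.0 in the libraries with the *Il1rl1-/-* label. Monocytes of WT mice 1 to 4 held 966, 849, 243, and 686 counts of *Satb1* beside sums of 1580, 1860, 559, and 1040 CPM of these markers, with mouse 3 lowest in both. Their part in the step of *Satb1* was not tested.

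All 13 partners of GOLPH3 in the Golgi phosphatidylinositol 4-phosphate pathway were tested, and 0 were called between genotypes, with a median log2 fold change of 0.02, 0.04, and 0.03. These include *Arf1*, a GTPase of Golgi membranes, and *Osbp*, an exchanger of sterol for phosphatidylinositol 4-phosphate, the highest per length by the mean over the 6 groups, although *Gga1* was above *Osbp* in pre-RPMs of both genotypes. *Col4a3bp*, the ceramide carrier CERT, fell from pre-RPMs to RPMs, by 1.21 on the log2 scale in WT (SE 0.11, edgeR's adjusted p = 5.46e-07) and by 1.40 in the libraries with the *Il1rl1-/-* label (SE 0.11, edgeR's adjusted p = 4.11e-08). It was named after its values were seen, like *Satb1* at the step above and *Smc1b*, *Mad2l1*, *Gga1*, *Rec114*, *Cenpb*, and the cell type steps of *Rbbp7* below.

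Most meiotic genes were too low to test beside *Hormad1*. Of 19 listed, 3 passed the filter in monocytes and in pre-RPMs and 6 in RPMs, and 0 were called between genotypes. *Hormad2*, its closest relative, held 1 count in a single library of 24, and *Syce3*, a protein of the synaptonemal complex, held 0 in all 24. *Stag3*, a cohesin subunit, was the highest per length at 75.5 to 102 CPM per kb, followed, by the mean over the 6 groups, by *Mad2l2* at 1.02 to 1.35, although *Rec114* was above it in RPMs (2.74 and 2.38). *Smc1b* was called higher in RPMs than in pre-RPMs in both genotypes, and *Mad2l1* in the libraries with the *Il1rl1-/-* label, beside 24.7% (WT) and 26.0% of all genes. *Smc1b* was at 0.059 and 0.973 CPM per kb in WT pre-RPMs and RPMs and at 0.0591 and 1.09 in those labelled *Il1rl1-/-*. *Mad2l1* was at 0.144 and 0.451 in the latter. Passing the filter on low counts can rest on the RPMs, where both are higher, so the values are no support for this direction.

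Of 15 genes of CENP-A deposition and the inner kinetochore, 9, 8, and 10 were tested in monocytes, pre-RPMs, and RPMs, and 0 were called between genotypes. By the mean over the 6 groups, the highest per length were *Npm1* and *Rbbp7*, both histone chaperones, at 25.5 to 31.0 and 5.71 to 15.7 CPM per kb. *Cenpb* was above *Rbbp7* in pre-RPMs, and *Plk1* was above it in WT monocytes and WT RPMs. *Rbbp7* was called at the cell type steps, lower in WT pre-RPMs than in monocytes and higher in RPMs than in pre-RPMs in both genotypes. *Cenpa*, the histone variant that HJURP loads, held 26, 31, 35, and 33 counts in WT pre-RPMs and 12, 24, 15, and 17 in those labelled *Il1rl1-/-*, without overlap of the genotypes. Its log2 fold change there was −1.08 (SE 0.24, edgeR's adjusted p = 0.0563), and it was called with every gene of at least 1 count (edgeR's adjusted p = 0.0143). Calls under that filter carry little weight, as given in the section on processing. *Cenpa* was also called there with at least 10 counts in every library (edgeR's adjusted p = 0.0398) and with the mouse number as a block (edgeR's adjusted p = 0.033). In monocytes and RPMs its log2 fold change was 0.25 and −0.04 (edgeR's adjusted p = 0.997 and 0.992), and *Cenpa* was singled out after its values were seen. With the mouse number as a block, 1 gene of this list was called in monocytes and in RPMs, *Plk1*, at −1.82 and −2.35 (edgeR's adjusted p = 0.046 and 0.0127), and without the block at −1.82 and −2.74 it was not (edgeR's adjusted p = 0.997 and 0.194).

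The 16 partners of MFAP1 in the spliceosomal B complex and the tri-snRNP were all tested, and 0 were called between genotypes or at any cell type step. The steps called 3.57% and 4.85% of all genes from monocytes to pre-RPMs and 24.7% and 26.0% from pre-RPMs to RPMs (WT and labelled *Il1rl1-/-*). *Ik*, a protein of the B complex, and *Prpf8*, which sits at the core of the spliceosome, were the highest per length by that mean, at 24.8 to 33.8 and 14.5 to 21.2 CPM per kb. By DESeq2, 0 partners of the 5 lists were called between genotypes in each cell type. At an unadjusted p under 0.05, the 5 lists held 0, 0, 1, 0, and 0 genes in monocytes, 0, 1, 1, 1, and 0 in pre-RPMs, and 1, 0, 0, 1, and 1 in RPMs, in the order above. The share of all genes that did so was 3.59%, 8.8%, and 7.27%, and 0.0614%, 0.552%, and 0.233% were called, so that 0 called in lists of this size is near the background.

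Genes that start within 1 Mb of the 6 loci of the members were tested to see how far the difference reached. In monocytes, pre-RPMs, and RPMs, 172, 176, and 166 such genes were tested by edgeR and 0 were called, where 0.0614%, 0.552%, and 0.233% of all genes were. At an unadjusted p under 0.05 there were 4, 17, and 4, beside 3.59%, 8.8%, and 7.27% of all genes. By DESeq2, 0, 0, and 1 were called, the last being *Txnip*, named for that call, at 0.33 (DESeq2's adjusted p = 0.0467). Their log2 fold changes ran from −0.74 to 0.93, −0.97 to 0.72, and −0.60 to 0.51, with medians of 0.02, −0.03, and 0.02. The nearest gene tested outside each locus is given, by distance alone. *Ensa*, 5.7 kb past *Golph3l*, had log2 fold changes of −0.07, 0.02, and −0.05, in monocytes, pre-RPMs, and RPMs. *Wdr76*, 0.1 kb from *Mfap1a*, had −0.25, 0.13, and −0.26, and *Pheta1*, 7.4 kb from *Cux2*, had 0.48, −0.19, and 0.51. *Sh2b2*, 1.6 kb from *Cux1*, had 0.07 and 0.11 in monocytes and pre-RPMs, where it was tested, and *Mtmr12*, 116.4 kb from *Golph3*, had −0.10, −0.11, and −0.16. *Ugt1a5*, 96.5 kb from *Hjurp*, shares exons with its relatives, so that its counts are uncertain, and was tested in pre-RPMs only, at −0.27.

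**Figure D4:**
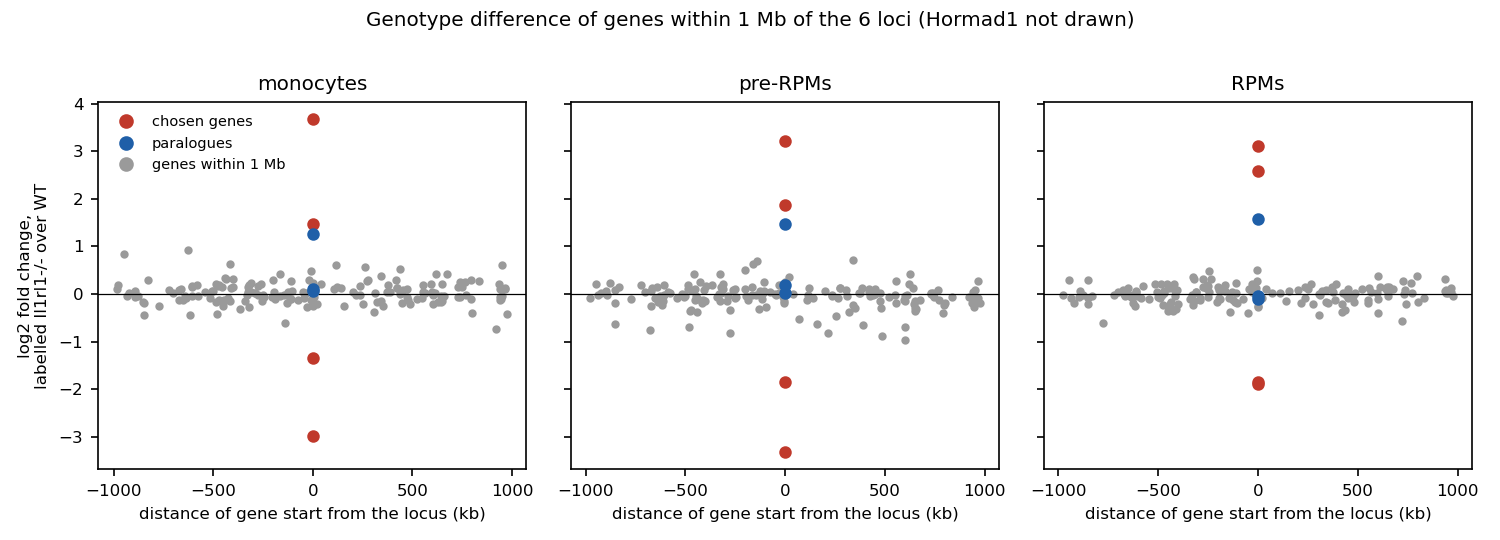
Difference in log2 level between libraries labelled *Il1rl1-/-* and WT (vertical axis) against the distance of a gene's start from the locus in kb (horizontal axis), for genes within 1 Mb of the 6 loci and for the members, which stand at distance 0; *Hormad1* is not drawn, since only its lower bound is known. The neighbouring genes stay between −0.97 and 0.93. *Cux2*, *Golph3l*, *Hjurp*, and *Mfap1a* lie further from 0, which follows from their choice on this contrast and says nothing about their loci.

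The genes most alike to each member were those with the highest Pearson r of log2 CPM over the 24 libraries among 11658 genes, given as a description, since the libraries share genotypes, cell types, and depth. *Cux2* was most like *Gm25813* (r = 0.947), *Gm25360* (0.927), and *Mfap1a* (0.867). *Hormad1* was most like *Cux2* (0.94) and then the same pair of Gm genes, *Gm25360* (0.938) and *Gm25813* (0.934). *Golph3l* and *Hjurp* were most like each other (0.895), followed for both by *Gm25939* (0.876 and 0.868) and then by *Ptgr2* (0.789) and *Cspp1* (0.766). *Mfap1a* was most like *Cux2* (0.867), *Gm25813* (0.811), and *Hibch* (0.796), and *Mfap1b* was most like *Hibch* (0.783), *Mfap1a* (0.772), and *Gm25360* (0.758). The 3 Gm genes are annotated as snRNAs, a family of many near-identical copies, so that their counts are uncertain. *Gm25813* and *Gm25360* were themselves called between genotypes in 3 cell types and *Gm25939* in 2. Their high r with the chosen members follows from these shared calls.

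*Gm25813* held 7, 14, 11, and 16 counts in WT monocytes and 53, 110, 133, and 148 in those labelled *Il1rl1-/-*, and *Gm25360* held 21, 17, 15, and 51 against 90, 207, 204, and 161. *Gm25939* went the other way, with 83, 115, 124, and 247 counts in WT monocytes and 19, 35, 33, and 51 in those labelled *Il1rl1-/-*. *Hibch*, an enzyme of valine breakdown, was at 2.79 ± 0.359 CPM in WT RPMs and 6.37 ± 0.709 in those labelled *Il1rl1-/-* (mean ± SD, n = 4). The genotypes of *Hibch* did not overlap in RPMs but did in monocytes and pre-RPMs, unlike those of *Mfap1a* and *Mfap1b*.

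The paralogues *Cux1* and *Golph3* were most like genes of another kind. *Cux1* was most like *Cx3cr1* (r = 0.989), *Ndrg1* (0.988), and *Olfm1* (0.988), all of them low in RPMs. *Cx3cr1*, the fractalkine receptor of monocytes, was at 100 ± 55.5, 169 ± 27.5, and 2.70 ± 1.29 CPM in WT monocytes, pre-RPMs, and RPMs (mean ± SD, n = 4). *Golph3* was most like *Capns1* (0.906), *Tpm3-rs7* (0.895), and *Gnas* (0.888), which varied little between groups. *Gnas*, a G protein subunit, was at 236 ± 10.8, 198 ± 25.6, and 191 ± 21.8 CPM in the same WT groups.

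Among the members, r over the 24 libraries was −0.917 for *Cux2* and *Golph3l*, −0.918 for *Cux2* and *Hjurp*, and −0.896 for *Hormad1* and *Hjurp*, which follows from how they were chosen. With the mean of each of the 6 groups removed, r over the same 24 libraries was −0.14, 0.25, and 0.05 for these pairs. For the paralogues it was 0.06 for *Cux1* and *Cux2*, 0.36 for *Golph3* and *Golph3l*, and −0.34 for *Mfap1b* and *Mfap1a*. Over the 28 pairs of members it ran from −0.75 (*Mfap1b* and *Cux2*) to 0.53 (*Hormad1* and *Golph3l*). These values also describe the libraries and carry no test.

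Markers of other cells were compared in the same libraries as the members. In pre-RPMs of mice 1 to 4, the 6 NK cell markers summed to 108, 141, 87.5, and 70.5 CPM in WT and to 18.4, 51.2, 28.9, and 13.4 in the libraries with the *Il1rl1-/-* label, led by *Gzma*. Of the 5 tested, *Ncr1*, *Prf1*, and *Gzma* were called lower. The 5 B cell markers summed to 41.9, 35.2, 52.2, and 47.1 CPM in WT and 24.6, 31.5, 16.7, and 16.4 in the libraries with the *Il1rl1-/-* label, led by *Cd79b*, and *Ms4a1* and *Pax5* were called lower. The 6 basophil and mast cell markers summed to 17.4, 11.0, 56.6, and 27.9 CPM in WT and 3.31, 5.09, 3.87, and 5.03 in the libraries with the *Il1rl1-/-* label. Of the 2 tested, *Gata2* was called lower, and *Fcer1a* was at 0 in the 4 libraries labelled *Il1rl1-/-*. All 3 sums were lower in every pre-RPM library labelled *Il1rl1-/-* than in any WT one. The study's flow cytometry counted these populations among NK1.1-low and CD11c-low cells, a gate that the labels of these libraries do not name. The part of these cells in the pre-RPM values of the members was not tested. In monocytes and RPMs, the sums of NK cell markers were 1260 and 25.4 CPM in WT and 997 and 13.7 in the libraries with the *Il1rl1-/-* label, with 0 of these markers called by edgeR. Of the lists of T, plasma, and erythroid cells, neutrophils, and eosinophils, the only marker called between genotypes was *S100a9*, lower in RPMs labelled *Il1rl1-/-*. The 6 neutrophil markers summed there to 11.4, 11.2, 12.0, and 10.2 CPM in WT and 3.36, 1.96, 1.53, and 2.13 in the libraries with the *Il1rl1-/-* label, without overlap. The sum of the 8 RPM markers did not overlap in RPMs either, at 6110 to 7850 CPM in WT and 8190 to 8550 in the libraries with the *Il1rl1-/-* label. The part of either in the RPM values of the members was not tested. Of the 11 genes of cycling cells, a setting in which HJURP acts, 7, 4, and 9 were tested in monocytes, pre-RPMs, and RPMs and 0 were called between genotypes, where 0.0614%, 0.552%, and 0.233% of all genes were. The sums of all 11 were 62.9, 36.9, and 202 CPM in WT monocytes, pre-RPMs, and RPMs and 67.2, 33.7, and 159 in the libraries with the *Il1rl1-/-* label.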

How the data were processed

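The authors deposited, for each of the 24 RNA-seq libraries, counts of read pairs per gene, as whole numbers without normalization. They had prepared stranded total RNA libraries, trimmed adaptors off with cutadapt, used STAR 2.5.1 for alignment to GRCm38, and counted read pairs with featureCounts by strand over exons joined by gene name (Ensembl). No option for reads at several sites is given in the file headers. The submitters' notes also list GRCh38, which the headers contradict. Libraries were grouped by their labels, with no other columns of samples (0), and the 24 chromatin accessibility samples of the 48 were not analysed here. Chi-square per degree of freedom between replicates was at least 3.85, and no libraries were identical.

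Each comparison was fitted on these counts by edgeR 4.0.16 under R 4.3.3 (quasi-likelihood, TMM, filterByExpr, Benjamini-Hochberg over all genes tested), with limma 3.58.1, after tests on simulated data. SEs and 95% intervals were derived from the F statistic. CPM used TMM factors over 24 libraries (0.797 to 1.384), and log2 CPM a prior count of 2. A count of 3, which is 0.457 to 0.842 CPM before TMM scaling, was the floor. Gene lengths are those of the deposited gene models, and 8 genes had exons on more than 1 chromosome. Coding exons were taken from GENCODE. Tables, sequences, and plots were made with pandas 2.3.3, NumPy 2.4.6, SciPy 1.17.1, Biopython 1.88, and matplotlib 3.10.9 under Python 3.11.15.

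The members, the partner lists, and the marker lists were chosen with earlier results of these data known. Genes named are the members, *Il1rl1*, the 3 genes most alike to each member with a mean log2 CPM of at least 1, genes within 1 Mb and partners called between genotypes, the 2 partners of each list highest per length by the mean over the 6 groups (1 of which is not reported here), and, outside that rule, the nearest gene tested at each locus and others said to be chosen on their values. Same-numbered libraries of different genotypes are different mice. Their deviations from group means correlated across genes at 0.144 or more in every pair of monocytes and 0.182 or more in RPMs, which was taken as pairing, but at 0.052 in the lowest pair of pre-RPMs, which was not. Of 8 libraries, 4, 7, and 2 correlated best with their own number in monocytes, pre-RPMs, and RPMs, an order that does not follow this split. Within a genotype, the labels give cell types of the same mouse number. Alternatives were DESeq2 1.42.0, RLE size factors, other filters on low counts, all 24 libraries in 1 fit, the mouse number as a block, and each library left out.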

Additional observations from a re-analysis of the deposited data

Results flagged for a closer look

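Of 48 group values, the level of each of the 8 genes in each of the 6 groups, 4 held a single library far from the other 3. Chance alone gives about 1 in 20 groups for continuous values. That rate does not hold where the other values tie at 0 or rest on few counts. *Cux2* was at 1.84 CPM in the WT pre-RPM library of mouse 2 and at 1.40, 1.43, and 1.47 CPM in the others, with 7 counts against 6. *Hormad1* was at 0.3 CPM in the WT monocyte library of mouse 4 and at 0.233 CPM in the WT pre-RPM library of mouse 1, with 0 in the other 3 of each group, and both values are under the floor of 3 counts. *Hormad1* was at 6.72 CPM in the monocyte library of mouse 2 labelled *Il1rl1-/-* and at 3.44, 3.66, and 3.91 CPM in the others, all above the WT libraries.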

How the results depend on the processing

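No value that was called changed direction under any setting. Values near 0 have no firm direction, such as that of *Cux1* in RPMs, which ran from −0.09 to 0.0 with a library left out. *Cux1* and *Golph3* were not called between genotypes in any cell type under any setting. *Mfap1b* was called in monocytes (1.23, edgeR's adjusted p = 0.0337) and pre-RPMs (1.49, edgeR's adjusted p = 0.0122) with every gene of at least 1 count. That filter also gave *Plk1* in RPMs edgeR's adjusted p = 8.87e-72, although its genotypes overlapped there. Calls under it are therefore listed without weight. In RPMs it was called with that filter (1.6, edgeR's adjusted p = 0.00411), with all 24 libraries in 1 fit (1.58, edgeR's adjusted p = 0.044), and with the mouse number as a block (1.58, edgeR's adjusted p = 0.0415). With each library left out, it was not called (1.09 to 1.47, 1.27 to 1.68, and 1.41 to 1.75), and the filter of at least 10 counts in every library leaves it out, as it does 15 values of the members in all.

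Genes called between genotypes in monocytes (7) were 26 with DESeq2, 16 with all 24 libraries in 1 fit, 3 with at least 10 counts, 139 with at least 1, and 27 with the mouse number as a block. Leaving out a library gave 1 to 8, with 1 without mouse 2 labelled *Il1rl1-/-* and 4 without WT mouse 1. Without that library of mouse 2, at most 1 of *Cux2*, *Golph3l*, *Hormad1*, and *Hjurp* can have kept its monocyte call. In pre-RPMs (59), they were 17 in 1 fit, 39 with at least 10 counts, 265 with at least 1, and 145 with the block, and 37 to 68 with a library left out, with 38 without mouse 4 labelled *Il1rl1-/-* and 37 without WT mouse 1. In RPMs (26), they were 60 with DESeq2, 272 with at least 1 count, and 81 with the block. From monocytes to pre-RPMs in WT (396), DESeq2 called 694, 1 fit 772, the filters 217 (at least 10) and 1094 (at least 1), and leaving out a library 169 to 1041. These were 249 and 1041 without the monocytes of mice 1 and 3, and 188, 241, 261, and 169 without the pre-RPMs of mice 1 to 4. In the libraries labelled *Il1rl1-/-* (543), the filters gave 264 and 1060 and leaving out a library 336 to 813, the lowest 3 being 336 without the monocytes of mouse 2 and 358 and 342 without the pre-RPMs of mice 1 and 4. From pre-RPMs to RPMs, at least 10 counts gave 1467 of 2776 in WT and 1542 of 2973 in the libraries labelled *Il1rl1-/-*. The cause of these shifts was not tested.

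Partners called between genotypes went from 0 to 1 with at least 1 count and with the block in each cell type, and in pre-RPMs with at least 10 counts. Without the WT RPM library of mouse 3 they were 1 in RPMs (0 to 1 over libraries left out). The gene was *Plk1* in monocytes and RPMs and *Cenpa* in pre-RPMs. Genes within 1 Mb called went from 0 to 1 in pre-RPMs with the block (*Mdh2*, −0.33) and in RPMs with DESeq2. The block changed no other call of a member, and interaction tests were run in 1 setting. With 3 counts as the floor, *Hormad1* in WT cannot be compared between cell types, *Cux2* in WT rests on 4 to 10 counts per library, and *Mfap1a* and *Mfap1b* cannot be fully told apart.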

Other observations

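*Plk1*, the kinase that licenses CENP-A loading, was among the partners of HJURP and is described here because its counts varied more between mice than those of any member, a choice made after its values were seen. In RPMs of mice 1 to 4, it held 672, 259, 33, and 101 counts (WT) against 21, 51, 33, and 66 (*Il1rl1-/-* label), so that the genotypes overlapped, at −2.74 on the log2 scale (SE 0.66, edgeR's adjusted p = 0.194; blocked by mouse number −2.35, edgeR's adjusted p = 0.0127). Without the WT library of mouse 3, it was −3.09 (edgeR's adjusted p = 0.0213). In WT monocytes it held 608, 68, 37, and 129 counts, and the WT library of mouse 1 was the highest in both cell types. In WT pre-RPMs it held 5, 3, 25, and 135 counts, and there mouse 4 was the highest.

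*Cspp1* and *Ptgr2*, the genes most alike to *Hjurp* and *Golph3l* outside the members and the snRNA genes, had smaller differences between genotypes than either. *Ptgr2*, a prostaglandin reductase, was at 14.0 ± 0.833 CPM in WT pre-RPMs and 10.3 ± 0.771 in those labelled *Il1rl1-/-* (mean ± SD, n = 4). *Cspp1*, a protein of centrosomes and spindle poles, was at 24.6 ± 3.90 and 18.6 ± 1.22 CPM in the same groups (mean ± SD, n = 4).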
